A study of Ambystoma mexicanum with 17 samples.

Results

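The HOX cluster genes of the axolotl (Ambystoma mexicanum) forelimb are described here across 4 groups of tissue. Members were all rows of the count files whose gene name is HOX followed by a cluster letter (A, B, C or D) and a number, the paralog number that matches genes of the same place in different clusters. Of the 122775 genes in the files, 37 were members: 11 in the HOXA cluster, 10 in HOXB, 8 in HOXC and 8 in HOXD. HOXC6 and HOXD12 were not analysed here.

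The study sequenced polyadenylated RNA of forelimb tissue from animals labelled d/d, the white genotype, to set regenerates of anterior and posterior limb tissue beside uninjured tissue and to follow what ERK inhibition does to posterior ones. One group is posterior blastemas given U0126 at 25 uM, a drug that blocks MEK and so keeps ERK from being activated (n = 5, called U0126-treated below). The others are posterior blastemas without the drug (n = 4), anterior blastemas without it (n = 5), and uninjured forelimb (n = 3). A blastema is the bud of progenitor cells that regrows a limb; here each had been raised by rerouting a nerve to a wound and was taken with its wound epithelium on day 10 after injury. All groups share the d/d genotype. The labels name DMSO and Holtfreter's solution beside the inhibitor without saying which the untreated blastemas received, and they do not say whether a library is 1 animal or a pool. Separate animals are not stated for libraries of 1 group, and a p-value here measures only how far such libraries spread, which may be technical.

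HOX genes encode homeodomain transcription factors that sit in ordered clusters and give cells their position along an axis. In mouse limbs the HOXA and HOXD genes of the 9 to 13 paralog groups act along the limb, with paralogs 9 and 10 needed for the upper arm, 11 for the forearm and 13 for the hand. The 5′ HOXD genes, those with the highest numbers, are also known in mouse and chick for a posterior bias in the limb bud, where they act together with the signal SHH.

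Libraries held 34181446 to 53856865 counts in genes, and HOX genes took 0.00629% to 0.0221% of them. Levels are given as CPM, counts per 1000000 of the library total after TMM scaling. At 3 reads, the floor used here, a library could show 0.0543 to 0.0818 CPM. Among the uninjured libraries the one labelled replicate 1 stood apart, as did the one labelled replicate 5 among the U0126-treated. PRRX1, a marker of limb mesenchyme, had 6.91 CPM in uninjured replicate 1 and 1.29 and 2.02 CPM in the other uninjured libraries. U0126-treated replicate 5 had 1.0 CPM, and the other treated libraries 3.90 to 21.2 CPM. Comparisons that use the group of either library are also given without both, for some genes as calls only. Genes listed as limb mesenchyme markers were read in each group. The summed CPM of these 14 genes was 3928 to 11132 in U0126-treated, 13912 to 18877 in posterior, 8624 to 15616 in anterior and 6510.5 to 10679.5 in uninjured libraries. U0126-treated replicate 5, with PRRX1 at 1.0 CPM, was at 7519, so the sum does not track PRRX1.

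Of the 37 members, 29 had enough reads to be tested: 10 of HOXA, 6 of HOXB, 6 of HOXC and 7 of HOXD. The other 8 had too few. HOXA6 had 83 reads over all 17 libraries, HOXB8 had 50, HOXB9 had 27, HOXD1 had 24, HOXB13 had 17, HOXC10 had 16 and HOXC9 had 15. HOXB1, a hindbrain gene in mouse, had 0 reads in every library, which allows at most the 3-read floor. By paralog group, 6 of 8 members of groups 1 to 3 were tested, 12 of 14 of groups 4 to 8, and 11 of 15 of groups 9 to 13. The 9 to 13 genes that were not tested belonged to HOXB and HOXC.

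**Figure D1:**
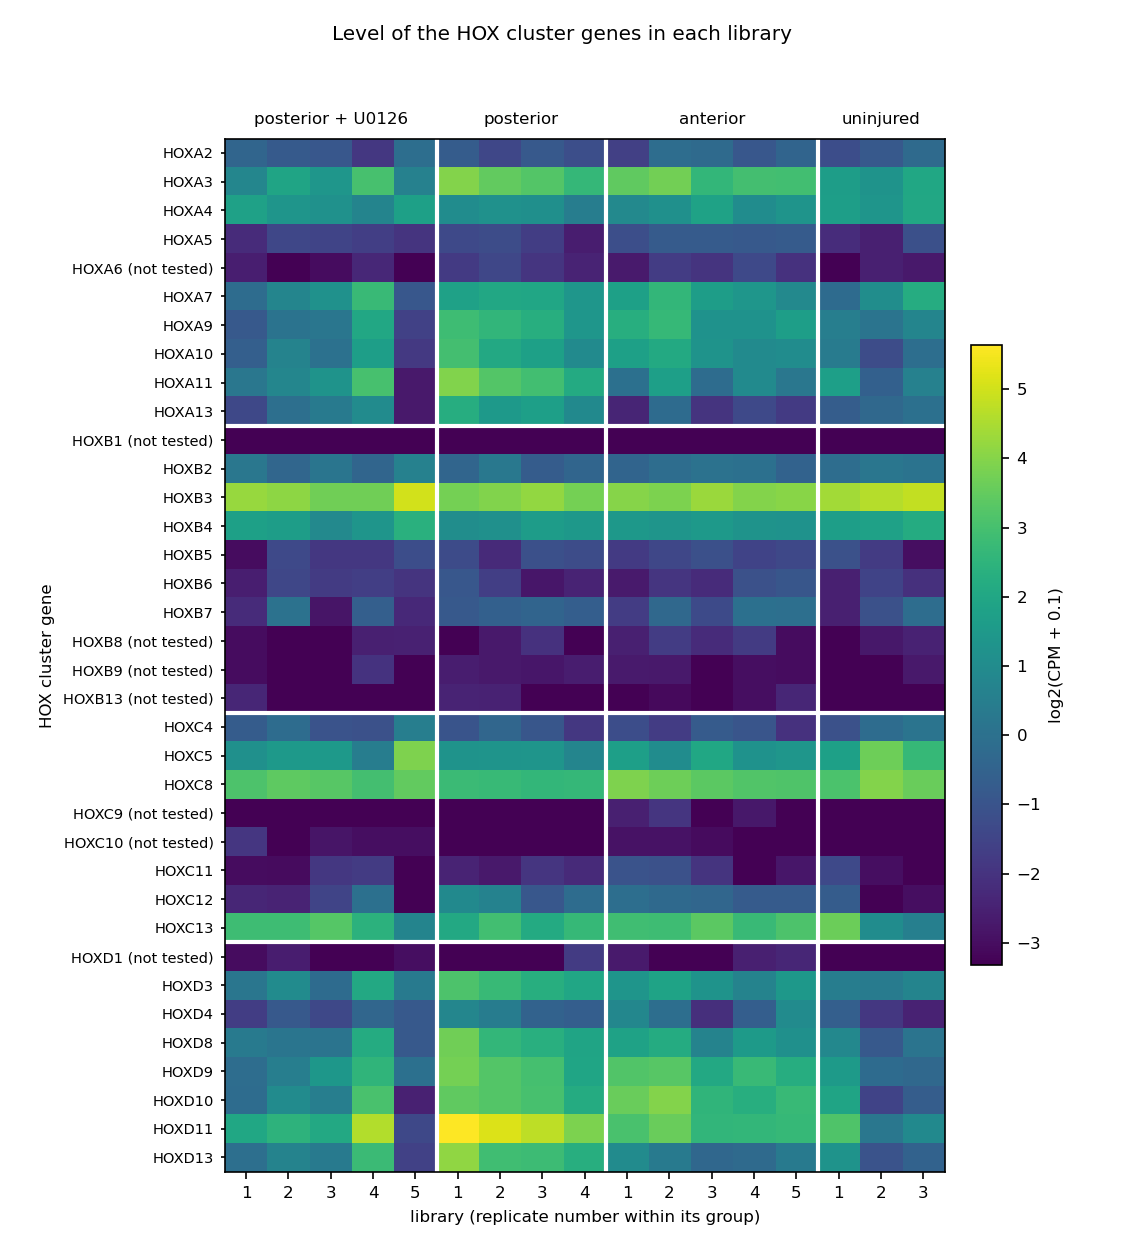
Level of the HOX cluster genes (rows, by cluster and paralog number) in each of the 17 libraries (columns, by group and replicate number), as log2(CPM + 0.1). The lower rows of HOXA and HOXD are brightest in the 4 posterior libraries and in U0126-treated replicate 4. Those of HOXA9, HOXA10, HOXD9 and HOXD10 are bright in anterior libraries too, while HOXB3 and HOXC8 are bright throughout.

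Summed over the 8 HOXD genes, levels were 3.63 to 54.0 CPM in U0126-treated, 35.7 to 114 CPM in posterior, 20.5 to 47.3 CPM in anterior and 4.33 to 21.3 CPM in uninjured libraries. Of the U0126-treated libraries only replicate 4 lay inside the posterior range, and of the anterior ones replicates 1 and 2 did. The 10 HOXB genes summed to 16.2 to 39.2 CPM in U0126-treated, 17.6 to 23 CPM in posterior, 19.2 to 24.1 CPM in anterior and 25.3 to 34.7 CPM in uninjured libraries. The 3 uninjured libraries thus had more HOXB than any posterior or anterior one and less HOXD than any posterior one. HOXB6, HOXB7 and HOXC11 were tested at very low levels and overlapped between the groups in each of the 6 comparisons. HOXC11 was at 0 to 0.195 CPM in U0126-treated, 0.0544 to 0.164 CPM in posterior, 0 to 0.386 CPM in anterior and 0 to 0.289 CPM in uninjured libraries. HOXB7 was at 0.0434 to 0.949 CPM in U0126-treated, 0.462 to 0.631 CPM in posterior, 0.202 to 0.885 CPM in anterior and 0.0723 to 0.818 CPM in uninjured libraries.

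The comparison of posterior with anterior blastemas asks which HOX genes follow the side of the limb. The genes with the highest paralog numbers in HOXA and HOXD, HOXA11, HOXA13, HOXD11 and HOXD13, were higher in every posterior library than in every anterior one, and their neighbours HOXA9, HOXA10, HOXD9 and HOXD10 overlapped between the sides. HOXC8 was lower in every posterior library. None of the 29 tested genes passed the threshold of an adjusted p under 0.05 in edgeR's quasi-likelihood test, where 0.00516% of all genes tested, that is 1 gene, passed.

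HOXA13, required for the hand in mouse, was at 4.72, 2.69, 3.20 and 1.79 CPM in the posterior libraries, against 0.0920, 0.779, 0.152, 0.295 and 0.187 CPM in the anterior ones. The lowest posterior library was above the highest anterior one. Its log2 fold change was 3.35 ± 0.76 (SE; edgeR, adjusted p = 0.323). HOXD13, in which repeat expansions cause synpolydactyly in people, was at 17.7, 7.32, 6.90 and 4.86 CPM in posterior libraries, against 1.90, 1.16, 0.703, 0.762 and 1.15 CPM in anterior ones. Its log2 fold change was 3.01 ± 0.78 (SE; edgeR, adjusted p = 0.337).

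HOXA11 and HOXD11, forearm genes in mouse, had the same order of groups. HOXA11 was at 15.3, 9.44, 7.46 and 4.38 CPM in posterior libraries, against 0.902, 3.20, 0.798, 1.87 and 1.08 CPM in anterior ones, with a log2 fold change of 2.54 ± 0.85 (SE; edgeR, adjusted p = 0.408). HOXD11 was at 49.6, 36, 26.5 and 14.3 CPM in posterior libraries, against 8.17, 12.1, 5.87, 6.02 and 6.30 CPM in anterior ones, with a log2 fold change of 2.04 ± 0.82 (SE; edgeR, adjusted p = 0.452). For both genes posterior replicate 1 was the highest and replicate 4 the lowest of the 4 posterior libraries.

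The genes one step lower in number did not separate the sides. HOXD10 averaged 8.16 ± 2.72 CPM in posterior (SD, n = 4) and 8.87 ± 4.58 CPM in anterior blastemas (SD, n = 5), with a log2 fold change of −0.12 ± 0.88 (SE). HOXD9 averaged 8.60 ± 3.98 CPM in posterior (SD, n = 4) and 6.85 ± 2.51 CPM in anterior blastemas (SD, n = 5). HOXA9 was at 2.49 to 7.17 CPM in posterior and 2.26 to 6.30 CPM in anterior libraries, and HOXA10 at 1.85 to 7.68 CPM in posterior and 1.84 to 4.24 CPM in anterior libraries. Posterior and anterior ranges overlap in both genes, and for HOXA10 the posterior range reaches higher. The annotated span of HOXA10 overlaps those of 6 other HOXA genes, HOXA9 among them, and what this does to their counts was not tested. The log2 fold changes were 0.33 ± 0.58 for HOXD9, 0.43 ± 0.60 for HOXA9 and 0.63 ± 0.62 for HOXA10 (SE).

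**Figure D2:**
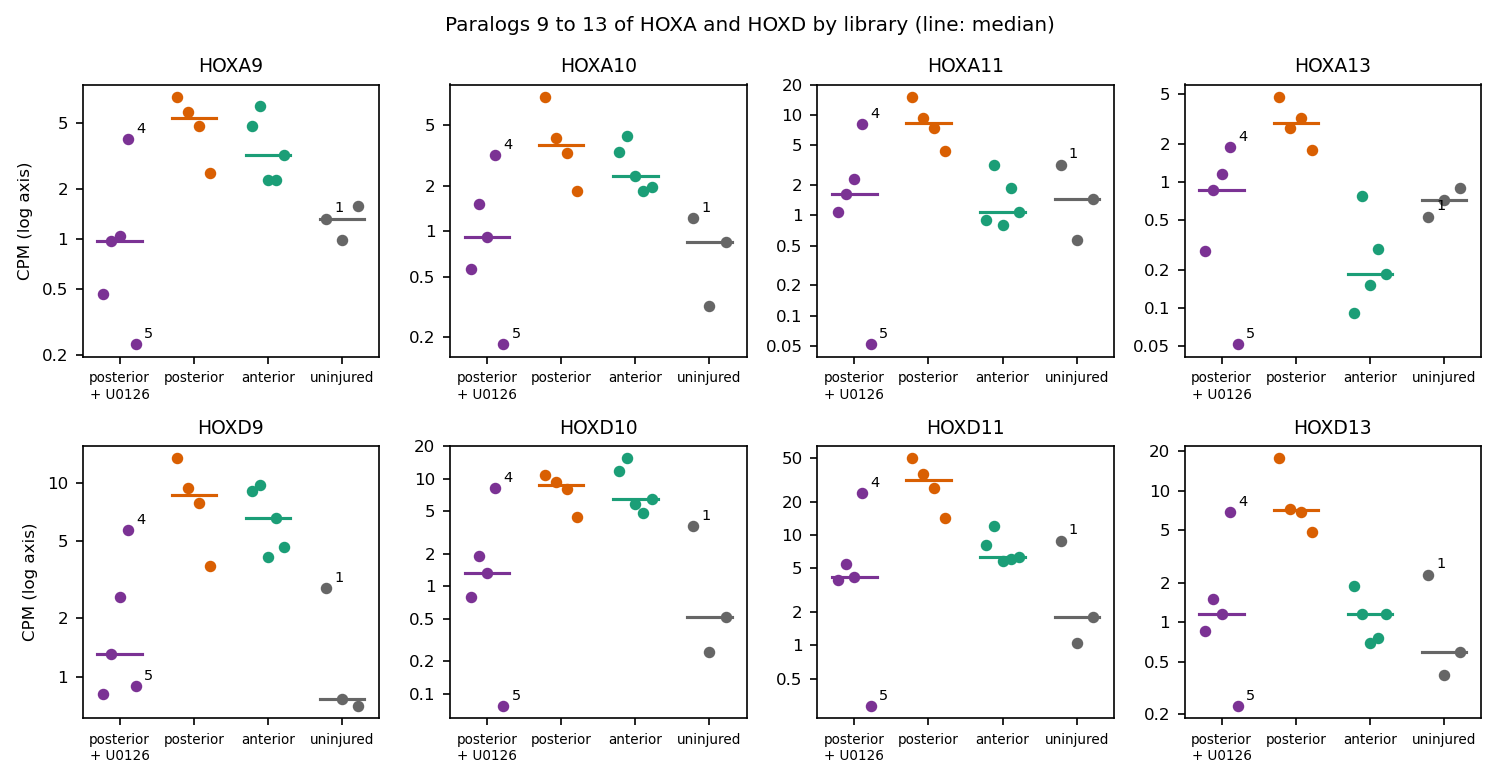
CPM on a log axis of the HOXA and HOXD genes of paralog groups 9 to 13 in each library, by group, with the group median as a line; U0126-treated replicates 4 and 5 and uninjured replicate 1 are numbered. HOXA11, HOXA13, HOXD11 and HOXD13 are higher in all posterior than in all anterior libraries, whereas the 2 groups overlap for the 4 genes of paralog groups 9 and 10.

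Among the lower-numbered genes HOXD3 stood with the high posterior group. It was at 8.64, 6.42, 4.82 and 3.88 CPM in posterior libraries, against 2.45, 3.55, 2.34, 1.5 and 2.62 CPM in anterior ones. The groups did not overlap, and the log2 fold change was 1.25 ± 0.41 (SE; edgeR, adjusted p = 0.408). HOXD3 and HOXD4 overlap in their annotated spans, and what this does to their counts was not tested. HOXC8, known in mouse from the trunk skeleton, was at 6.82, 6.5, 5.99 and 6.21 CPM in posterior libraries, against 14.8, 12.6, 10.4, 9.05 and 9.0 CPM in anterior ones. The posterior values lay within a narrow band below all anterior ones, with a log2 fold change of −0.81 ± 0.19 (SE; edgeR, adjusted p = 0.325).

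In all, 7 of the 29 genes did not overlap between the sides, beside 4.85% of all genes tested. Of these 5 were higher in posterior libraries, beside 2.78% of all genes, and 2 were lower, HOXC8 and HOXA5, beside 2.07%. HOXA5 was named after its values were seen. At an unadjusted p under 0.05, edgeR had 6 members higher and 1 lower, where 5.56% and 4.01% of all genes were (9.56% in either direction). DESeq2 called 3 members, HOXA13 and HOXD13 as higher and HOXC8 as lower, where it called 0.656% of all genes. The median log2 fold change was 1.24 over the 7 tested HOXD genes, 0.13 over the 10 of HOXA, −0.09 over the 6 of HOXB and −0.44 over the 6 of HOXC, and −0.00 over all 19398 genes tested. By number, it was −0.11 for paralog groups 1 to 3, −0.06 for groups 4 to 8 and 0.63 for groups 9 to 13.

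RNA of whole tissue was measured, so fewer cells of a type and less RNA per cell cannot be told apart. Posterior libraries also held more muscle RNA than anterior ones: the summed CPM of 10 skeletal muscle genes was 1677 to 12122 in posterior and 1.75 to 3239 in anterior libraries, with 10 of 10 genes at a positive log2 fold change and 0 called. The limb mesenchyme list had 12 of 14 genes at a positive log2 fold change (median 0.35) and 0 called. Their part in the HOX values was not tested.

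Reads of 1 HOX gene were also set against those of another within each library. The pairs were chosen after the values had been seen, so the ratios are given as a description with no test, and they compare libraries, not genes. HOXD11 had 2.90 to 4.94 reads per read of HOXD10 in U0126-treated, 3.24 to 4.61 in posterior, 0.692 to 1.25 in anterior and 2.45 to 4.30 in uninjured libraries. All 5 anterior libraries lay below all 12 others.

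Of the 8 ratios of a paralog 11 or 13 gene to a paralog 9 or 10 gene of its own cluster, 5 put all anterior libraries below all others: the 4 of paralog 13 genes and HOXD11 per HOXD10. HOXD13 had 0.800 to 3.0 reads per read of HOXD10 in U0126-treated, 0.782 to 1.64 in posterior, 0.0749 to 0.178 in anterior and 0.636 to 1.60 in uninjured libraries. HOXA13 had 0.222 to 1.10 reads per read of HOXA9 in U0126-treated, 0.460 to 0.719 in posterior, 0.0192 to 0.130 in anterior and 0.400 to 0.725 in uninjured libraries. The other 3 ratios did not split the libraries. HOXD11 per HOXD9 was 0.314 to 4.80 in U0126-treated, 3.37 to 3.85 in posterior, 0.902 to 1.41 in anterior and 1.39 to 3.11 in uninjured libraries. HOXA11 per HOXA9 was 0.222 to 2.30 in U0126-treated, 1.56 to 2.13 in posterior, 0.188 to 0.826 in anterior and 0.575 to 2.44 in uninjured libraries. HOXA11 per HOXA10 was 0.286 to 2.57 in U0126-treated, 1.99 to 2.36 in posterior, 0.272 to 1.01 in anterior and 1.71 to 2.63 in uninjured libraries. In all 3 every posterior library lay above every anterior one, and U0126-treated replicate 5 was the lowest treated library. HOXA10 per HOXA9 did not split them either, at 0.778 to 1.57 in U0126-treated, 0.688 to 1.07 in posterior, 0.618 to 1.02 in anterior and 0.325 to 0.927 in uninjured libraries. U0126-treated replicate 5 had only 3 reads of HOXD10, 2 each of HOXA11 and HOXA13, 9 each of HOXA9 and HOXD13 and 7 of HOXA10, so its ratios are uncertain. It was the lowest library outside the anterior group in HOXA13 per HOXA9, HOXA13 per HOXA10 and HOXD13 per HOXD9. For HOXD13 per HOXD9 it was at 0.257, against an anterior maximum of 0.245. HOXA9 and HOXA10 overlap in their annotated spans, and what this does to the ratios that use them was not tested.

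**Figure D3:**
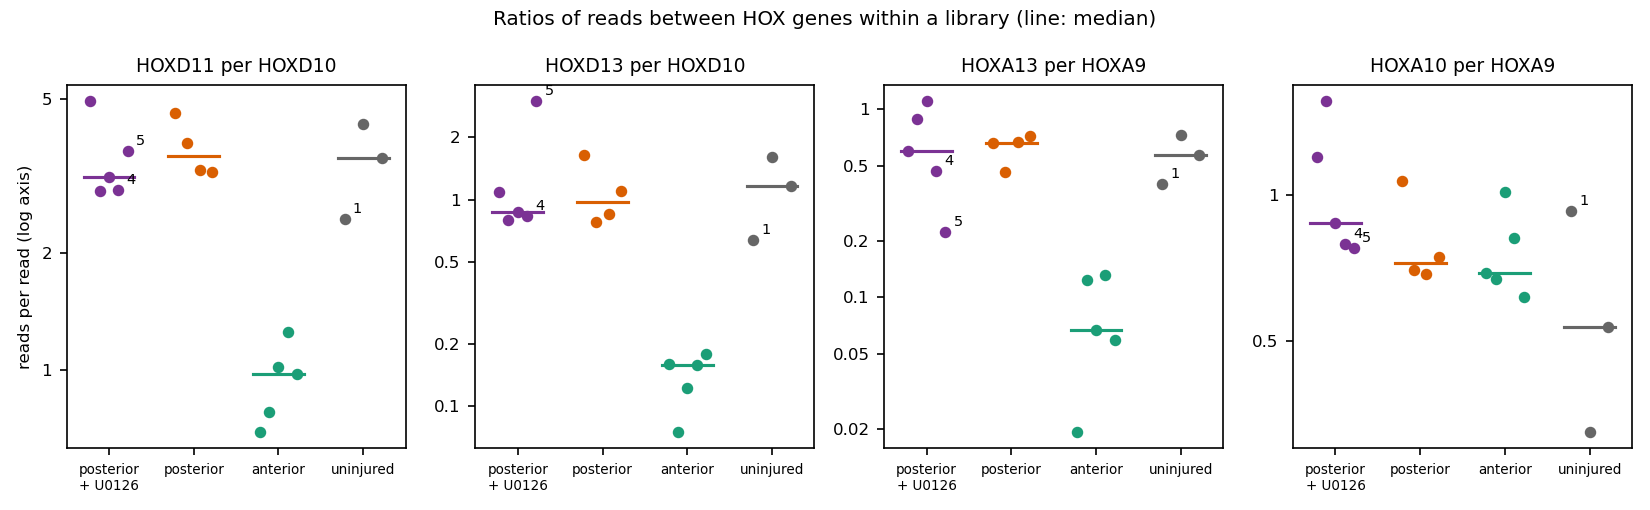
Reads of 1 HOX gene per read of another within each library, on log axes, by group, with the group median as a line; U0126-treated replicates 4 and 5 and uninjured replicate 1 are numbered. For HOXD11 per HOXD10, HOXD13 per HOXD10 and HOXA13 per HOXA9 the 5 anterior libraries lie below all others, including the U0126-treated and uninjured ones, and for HOXA10 per HOXA9 they do not.

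Posterior blastemas with and without U0126 were compared next, to follow the HOX genes under ERK inhibition. HOXA3, HOXD3 and HOXD8 fell with the inhibitor. All 7 tested HOXD genes and 10 of the 11 tested genes of paralog groups 9 to 13 had negative log2 fold changes, as did 3 of 6 HOXB and 2 of 6 HOXC genes. The 3 calls among 29 genes, all lower, stand beside 8.12% of all genes called in either direction, 4.13% as higher and 3.99% as lower.

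HOXD3 was at 1.05, 1.88, 0.781, 4.10 and 1.18 CPM in U0126-treated libraries, against 8.64, 6.42, 4.82 and 3.88 CPM in posterior ones. Its log2 fold change was −1.72 ± 0.42 (SE; edgeR, adjusted p = 0.0253). Replicate 4 of the treated group lay within the posterior range and the other 4 below it. HOXD8 was at 1.19, 1.01, 0.998, 4.5 and 0.463 CPM in U0126-treated libraries, against 12.8, 6.04, 4.98 and 3.68 CPM in posterior ones, with a log2 fold change of −2.07 ± 0.59 (SE; edgeR, adjusted p = 0.0441). HOXA3, known in mouse from pharyngeal arch derivatives such as the thymus, was at 1.62, 3.65, 2.54, 8.14 and 1.44 CPM in U0126-treated libraries, against 15.5, 11.2, 9.28 and 6.11 CPM in posterior ones. It fell by 1.60 ± 0.44 on the log2 scale (SE; edgeR, adjusted p = 0.0402). The annotated span of HOXA3 overlaps those of 4 other HOXA genes, HOXA10 among them, and what this does to its counts was not tested.

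The distal genes had log2 fold changes as large with wider errors, and did not pass. HOXD11 was at 3.93, 5.5, 4.17, 24.0 and 0.283 CPM in U0126-treated libraries, against 49.6, 36, 26.5 and 14.3 CPM in posterior ones, with a log2 fold change of −2.06 ± 0.82 (SE; edgeR, adjusted p = 0.129). HOXD13 was at 0.867, 1.52, 1.15, 6.87 and 0.231 CPM in U0126-treated libraries, against 17.7, 7.32, 6.90 and 4.86 CPM in posterior ones, with a log2 fold change of −2.11 ± 0.76 (SE; edgeR, adjusted p = 0.0938). In both genes 4 of 5 treated libraries lay below every posterior one. HOXA11 was at 1.08, 1.64, 2.32, 8.16 and 0.0514 CPM in U0126-treated libraries, against 15.3, 9.44, 7.46 and 4.38 CPM in posterior ones, and HOXA13 at 0.281, 0.864, 1.15, 1.88 and 0.0514 CPM in treated and 4.72, 2.69, 3.20 and 1.79 CPM in posterior ones. Replicate 4 was again the treated library inside the posterior range. Their log2 fold changes were −1.79 ± 0.84 for HOXA11 and −1.87 ± 0.72 for HOXA13 (SE; edgeR, adjusted p = 0.200 and 0.117).

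Genes of paralog groups 9 and 10, which did not separate the sides, had log2 fold changes of the same size with the inhibitor. These were −1.92 ± 0.62 for HOXA9, −1.74 ± 0.63 for HOXA10, −1.93 ± 0.59 for HOXD9 and −1.73 ± 0.89 for HOXD10 (SE; edgeR, adjusted p = 0.0670, 0.0974, 0.0561 and 0.246). HOXD9 averaged 2.26 ± 2.04 CPM in U0126-treated (SD, n = 5) and 8.60 ± 3.98 CPM in posterior blastemas (SD, n = 4). HOXA9 averaged 1.34 ± 1.53 CPM in U0126-treated (SD, n = 5) and 5.08 ± 1.98 CPM in posterior blastemas (SD, n = 4). HOXC12 had 4, 4, 12, 36 and 0 reads in treated libraries and 87, 54, 19 and 37 reads in posterior ones, with a log2 fold change of −2.10 ± 0.99 (SE; edgeR, adjusted p = 0.203).

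The 1 member whose groups did not overlap was HOXC8, which lay higher with the inhibitor, where 6.25% of all genes did so. It was at 8.71, 10.5, 9.78, 7.67 and 11 CPM in U0126-treated libraries, against 6.82, 6.5, 5.99 and 6.21 CPM in posterior ones, with a log2 fold change of 0.58 ± 0.19 (SE; edgeR, adjusted p = 0.0668). In HOXB the log2 fold changes had a median of 0.10.

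**Figure D4:**
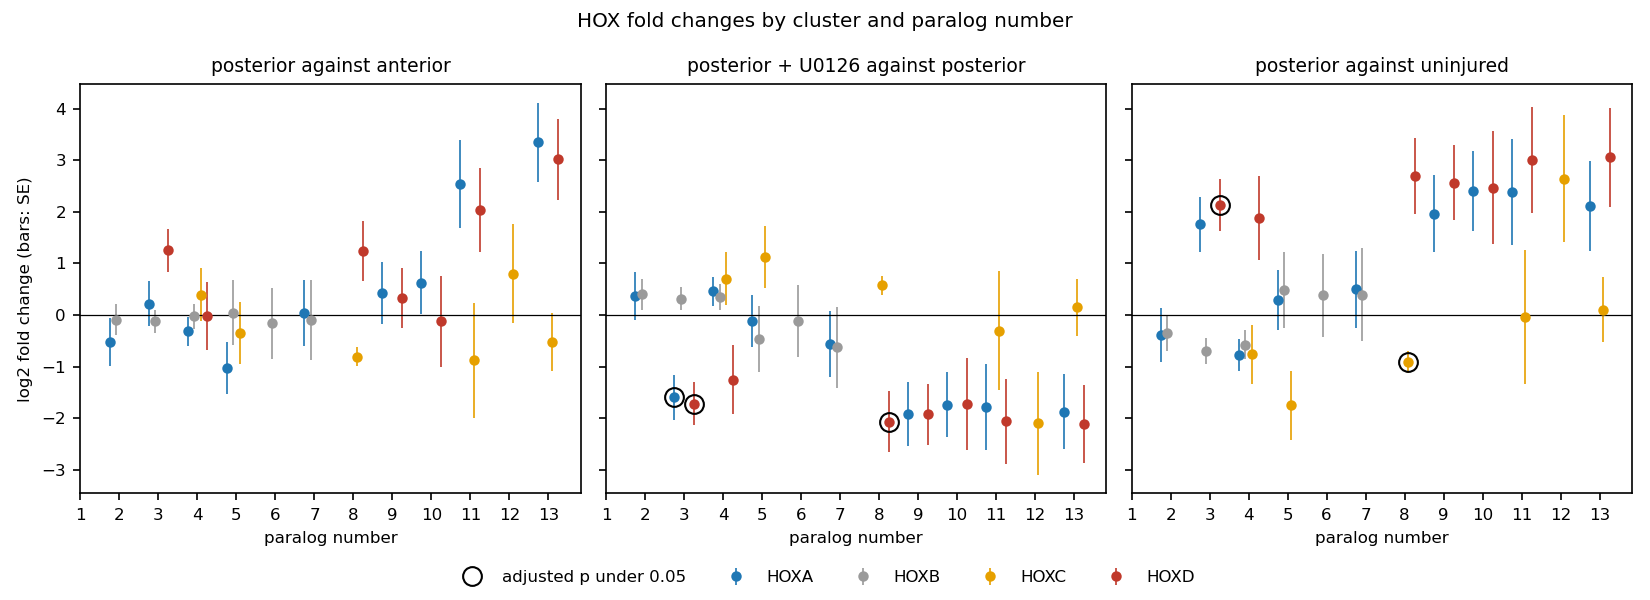
Log2 fold change with its SE for tested HOX genes by paralog number, coloured by cluster, for posterior against anterior, U0126-treated posterior against posterior, and posterior against uninjured; circles mark an adjusted p under 0.05 in edgeR. Against anterior the points up to paralog 7 lie on both sides of 0 and those above 2 are HOXA11, HOXA13, HOXD11 and HOXD13, and with the inhibitor all HOXD points lie between −1.25 and −2.11. All panels share the posterior libraries.

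The median log2 fold change with the inhibitor was −1.93 over HOXD, −1.08 over HOXA, 0.10 over HOXB and 0.36 over HOXC, beside −0.00 over all genes tested. By number, it was 0.35 for paralog groups 1 to 3, −0.12 for groups 4 to 8 and −1.87 for groups 9 to 13. At an unadjusted p under 0.05, edgeR had 10 members lower and 2 higher, where 12.4% of all genes were lower and 12.5% higher. DESeq2 called 8 members lower and 1 higher, where it called 7.64% and 7.62% of all genes.

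The 3 calls depend on single libraries. Without U0126-treated replicate 4, edgeR called 11 members as lower, where 6.75% of all genes were, and HOXC8 as higher, where 5.56% were. HOXD13 then had a log2 fold change of −3.28 ± 0.66 and HOXD11 one of −3.18 ± 0.76 (SE; edgeR, adjusted p = 0.00738 and 0.0168). Without U0126-treated replicate 1, 2 or 3, or posterior replicate 1 or 2, edgeR called 0 members. Without U0126-treated replicate 5, posterior replicate 3 or anterior replicate 1, 4 or 5, HOXD3 alone was called. Without uninjured replicate 1 there were 5. Over all fits that left out 1 library, 127 to 2381 of all genes were called in this comparison, beside 1576 on all libraries. Without both libraries that stood apart, HOXD3 and HOXD8 fell by 1.61 ± 0.46 and 1.84 ± 0.56 on the log2 scale (SE; edgeR, adjusted p = 0.0360 and 0.0481), where 5.92% of all genes were called as lower. HOXA3 did not pass in that setting, with a log2 fold change of −1.41 ± 0.45 (SE; edgeR, adjusted p = 0.0570).

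Markers of limb mesenchyme moved in the same direction as the HOXD genes. Of that list, 5 of 14 genes fell with the inhibitor (PRRX2, PDGFRA, PDGFRB, FSTL1 and KAZALD1) and 13 of 14 had a negative log2 fold change, with a median of −1.35. The mesenchymal transcription factor PRRX1 was at 5.27, 7.08, 3.90, 21.2 and 1.0 CPM in U0126-treated libraries, against 35.2, 21.2, 16.9 and 10.8 CPM in posterior ones. Replicate 4 of the treated group was high here as it was in HOXD. Of 12 epidermal markers 3 rose (CDH1, GRHL1 and GRHL2) and 1 fell (KRT8). The summed CPM of 12 cartilage and bone genes was 222 to 526 in U0126-treated and 634 to 901 in posterior libraries, which do not overlap, and 4 of the 12 fell (ACAN, COL11A1, MATN4 and IBSP). That of 7 macrophage genes was 373 to 726 in U0126-treated and 677 to 1399.5 in posterior libraries, which overlap, and 3 of the 7 fell (C1QA, C1QB and C1QC). Of the skeletal muscle list 10 of 10 genes had a negative log2 fold change with the inhibitor (median −0.88), with 0 called. The part of these shifts in the HOX values was not tested.

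Reads were also set against PRRX1 within each library, again as a description. HOXD13 had 0.164 to 0.324 reads per read of PRRX1 in U0126-treated and 0.345 to 0.503 in posterior libraries. HOXD11 had 0.282 to 1.13 per read of PRRX1 in U0126-treated and 1.33 to 1.70 in posterior libraries. For both genes the groups did not overlap on this scale. For HOXD9 they did, at 0.156 to 0.897 in U0126-treated and 0.346 to 0.466 in posterior libraries, and for HOXA13, at 0.0513 to 0.294 in U0126-treated and 0.127 to 0.189 in posterior libraries. The genes called with the inhibitor overlapped as well. HOXD3 was at 0.194 to 1.18 in U0126-treated and 0.246 to 0.360 in posterior libraries. HOXD8 was at 0.143 to 0.462 and 0.285 to 0.363, and HOXA3 at 0.307 to 1.44 and 0.440 to 0.567, in the same order. The overlap of HOXD8 rested on U0126-treated replicate 5 alone, at 0.462 with 18 reads of HOXD8. The other treated libraries were at 0.143 to 0.256, below all posterior ones. HOXD3 and HOXA3 overlapped without replicate 5 too. HOXA9, HOXA10, HOXA11 and HOXD10 overlapped too. Against anterior libraries, HOXA13 per PRRX1 was 0.127 to 0.189 in posterior and 0.00457 to 0.0247 in anterior ones.

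Blastemas and uninjured tissue were compared to see which HOX genes differ in regenerating limbs. In posterior blastemas HOXD3 rose and HOXC8 fell relative to uninjured limbs, and all 7 tested HOXD genes had positive log2 fold changes, of 1.88 to 3.05. These calls stand beside 0.866% of all genes called as higher and 1.24% as lower. HOXD3 was at 8.64, 6.42, 4.82 and 3.88 CPM in posterior libraries, against 1.30, 1.21 and 1.55 CPM in uninjured ones, with a log2 fold change of 2.13 ± 0.51 (SE; edgeR, adjusted p = 0.0441). HOXC8 was at 5.99 to 6.82 CPM in posterior libraries, against 8.48, 15.6 and 12 CPM in uninjured ones, with a log2 fold change of −0.91 ± 0.21 (SE; edgeR, adjusted p = 0.0392). Neither gene overlapped between the groups.

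Most markers of limb mesenchyme had positive log2 fold changes in blastemas too, with a median below that of HOXD. PRRX1 was at 35.2, 21.2, 16.9 and 10.8 CPM in posterior and 6.91, 1.29 and 2.02 CPM in uninjured libraries, which do not overlap. Its log2 fold change was 2.62 ± 0.83 in posterior and 2.54 ± 0.81 in anterior blastemas against uninjured tissue (SE; edgeR, adjusted p = 0.0893 and 0.108). Of the 14 genes of the list 13 had a positive log2 fold change in posterior (median 1.36) and 11 in anterior blastemas (median 1.06), with 0 called in either. The tested HOXD genes had medians of 2.57 in posterior and 1.45 in anterior blastemas. HOXD9 per read of PRRX1 was 0.346 to 0.466 in posterior and 0.351 to 0.596 in uninjured libraries, which overlap. HOXD11 per read of PRRX1 was 1.33 to 1.70 in posterior and 0.827 to 1.29 in uninjured libraries, which do not. HOXD3, the HOXD gene called here, was at 0.246 to 0.360 in posterior libraries. In uninjured ones it was at 0.188, 0.942 and 0.770 per read of PRRX1, so the groups overlap. Of the skeletal muscle list 10 of 10 genes had negative log2 fold changes in blastemas against uninjured tissue, with 0 called. Their median was −0.99 in posterior and −3.94 in anterior blastemas. Their summed CPM was 1677 to 12122 in posterior, 1.75 to 3239 in anterior and 900, 11563 and 24393 in uninjured libraries. The groups overlap, and uninjured replicate 1, at 900, lay below every posterior library. The part of the mesenchyme and muscle markers in the HOX values was not tested.

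Of the 29 tested genes 11 did not overlap and were higher in posterior than in uninjured libraries, where 8.94% of all genes did so, and 5 were lower, where 7.72% did. The 11 were HOXA3, HOXA9, HOXA10, HOXA11, HOXA13, HOXD3, HOXD8, HOXD9, HOXD10, HOXD11 and HOXD13. HOXD13 averaged 9.19 ± 5.76 CPM in posterior (SD, n = 4) and 1.10 ± 1.05 CPM in uninjured tissue (SD, n = 3), with a log2 fold change of 3.05 ± 0.96 (SE; edgeR, adjusted p = 0.0867). HOXA10 was at 1.85 to 7.68 CPM in posterior and 0.321 to 1.23 CPM in uninjured libraries, with a log2 fold change of 2.40 ± 0.78 (SE; edgeR, adjusted p = 0.0938). At an unadjusted p under 0.05, edgeR had 13 members higher and 4 lower, where 10.7% and 10.6% of all genes were, and DESeq2 called 8 higher and 1 lower, where it called 5.87% and 5.23% of all genes.

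In anterior blastemas the 5 members that lay above all uninjured libraries, HOXA3, HOXA9, HOXA10, HOXD9 and HOXD10, were also among the 11 of posterior blastemas, and both comparisons share the uninjured libraries. HOXD10 was at 11.8, 15.5, 5.77, 4.82 and 6.47 CPM in anterior libraries, against 3.64, 0.247 and 0.518 CPM in uninjured ones, and HOXD9 at 4.16 to 9.74 CPM in anterior and 2.87, 0.766 and 0.709 CPM in uninjured ones. Neither overlapped, with log2 fold changes of 2.59 ± 1.08 for HOXD10 and 2.24 ± 0.70 for HOXD9 (SE; edgeR, adjusted p = 0.187 and 0.105). HOXD13 was at 0.703 to 1.90 CPM in anterior and 2.31, 0.395 and 0.600 CPM in uninjured libraries, which overlap. HOXA13 was at 0.0920 to 0.779 CPM in anterior and 0.530, 0.717 and 0.900 CPM in uninjured libraries, which overlap as well. No member passed in edgeR, where 0.206% of all genes did (0.139% as lower). At an unadjusted p under 0.05, 8 members were higher, where 9.70% of all genes were, and 2 lower, where 11.8% were, and DESeq2 called HOXA3 and HOXD9 as higher, where it called 3.90% of all genes. By range, 5 members did not overlap and were higher, where 5.80% of all genes did so, and 2 were lower, where 4.90% did.

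The uninjured group is the smallest, and its replicate 1 carried values near those of blastemas in some HOX genes. HOXA3 and HOXD3, at 3.11 and 1.30 CPM in that library, lay between the other uninjured libraries. HOXD11 was at 8.91 CPM in uninjured replicate 1 and at 1.06 and 1.83 CPM in replicates 2 and 3. HOXC13, known in mouse from hair and nails, was at 12.2 CPM in replicate 1 and at 1.93 and 1.36 CPM in the others. The highest blastema library had 10.3 CPM of HOXC13. U0126-treated replicate 5 differed from its group the other way, with HOXC13 at 1.54 CPM where the other treated libraries had 5.25 to 9.65 CPM, and HOXC5 at 15.0 CPM where they had 1.29 to 2.72 CPM. HOXC5 in uninjured replicates 2 and 3 was at 12.5 and 6.30 CPM, and in replicate 1 at 3.3 CPM. TNC, a matrix glycoprotein gene, was at 1329 CPM in uninjured replicate 1 and 71.6 and 78.4 CPM in the other uninjured libraries, and at 102 CPM in U0126-treated replicate 5.

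Without both libraries, a setting chosen with earlier results of these data known, 30 HOX genes were tested and the uninjured comparisons gave many more calls, over all genes too. HOXC13 rose in all 3 kinds of blastema relative to the 2 uninjured libraries left, by a log2 fold change of 2.14 ± 0.33 in U0126-treated, 1.76 ± 0.32 in posterior and 2.27 ± 0.32 in anterior blastemas (SE; edgeR, adjusted p = 0.00139, 0.00585 and 0.00134). The 2 libraries left out held HOXC13 and HOXC5 values far from those of their groups, so this setting removed values that went the other way. On all libraries HOXC13 averaged 6.14 ± 3.01 CPM in U0126-treated (SD, n = 5) and 5.55 ± 1.57 CPM in posterior blastemas (SD, n = 4). It averaged 7.98 ± 1.47 CPM in anterior blastemas (SD, n = 5) and 5.15 ± 6.08 CPM in uninjured tissue (SD, n = 3). HOXB3 and HOXC5, named after their values were seen, fell in all 3 kinds of blastema in this setting. HOXB3 fell by 0.77 ± 0.17 in U0126-treated, by 0.80 ± 0.17 in posterior and by 0.69 ± 0.16 in anterior blastemas on the log2 scale (SE; edgeR, adjusted p = 0.00768, 0.0111 and 0.0113). HOXC5 fell by 2.08 ± 0.35 in U0126-treated, by 2.10 ± 0.35 in posterior and by 1.76 ± 0.33 in anterior blastemas (SE; edgeR, adjusted p = 0.00215, 0.00421 and 0.00431). The span of HOXB3 overlaps those of 3 other HOXB genes. Without both, all 3 comparisons share the 2 uninjured libraries left. On all libraries HOXC13, HOXB3 and HOXC5 did not pass against uninjured tissue in any kind of blastema. There HOXB3 had log2 fold changes of −0.70 in posterior and −0.58 in anterior blastemas (edgeR, adjusted p = 0.125 and 0.181). HOXC5 had −0.63 in U0126-treated, −1.75 in posterior and −1.40 in anterior blastemas (edgeR, adjusted p = 0.694, 0.146 and 0.212).

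**Figure D5:**
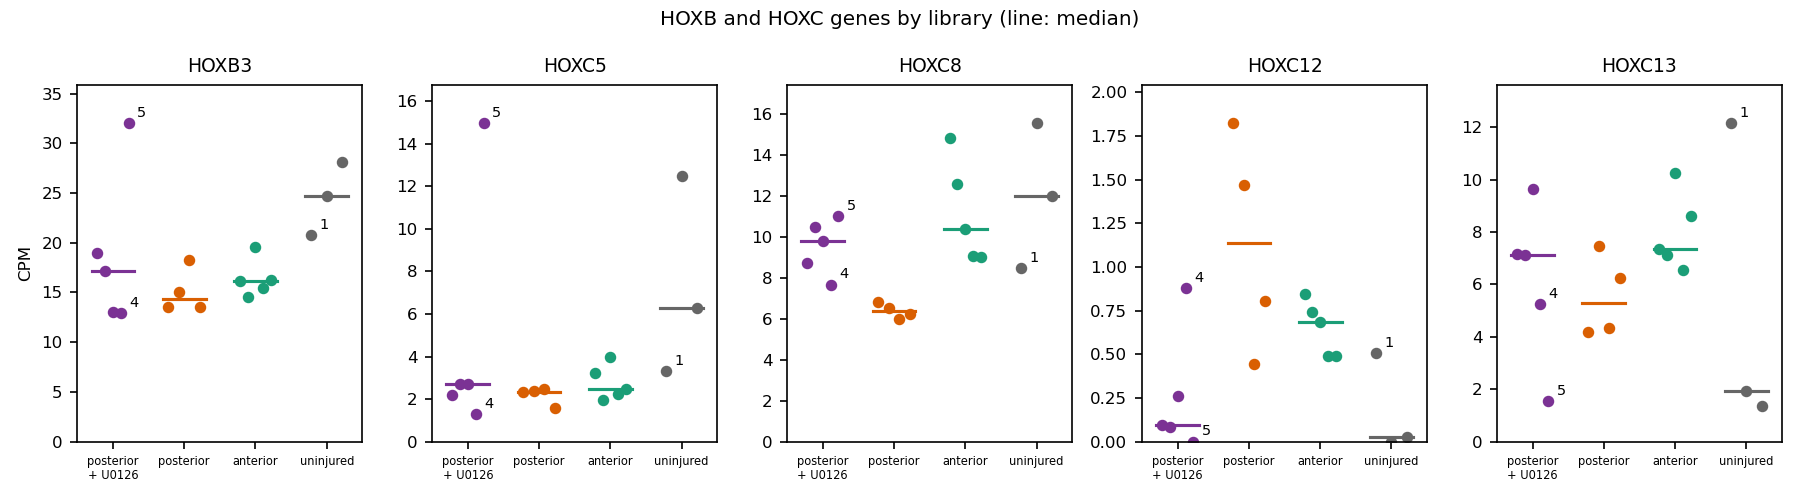
CPM of 5 HOXB and HOXC genes in each library, by group, with the group median as a line; U0126-treated replicates 4 and 5 and uninjured replicate 1 are numbered. HOXC8 is lowest in the 4 posterior libraries, at 5.99 to 6.82 CPM, and for HOXC5 and HOXC13 uninjured replicate 1 lies away from uninjured replicates 2 and 3 and U0126-treated replicate 5 away from its group.

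HOXA10, HOXC12, HOXD9, HOXD10 and HOXD11 were also called as higher in both posterior and anterior blastemas without both libraries, and the difference between the 2 lists of calls was not tested. In each of these genes uninjured replicate 1, left out here, was the highest uninjured library. The setting thus removed values that went the other way for them too. Posterior blastemas had 10 members higher than uninjured tissue, where 9.35% of all genes were, and 3 lower, where 6.36% were. The higher ones were HOXA10, HOXA11, HOXC12, HOXC13, HOXD3, HOXD8, HOXD9, HOXD10, HOXD11 and HOXD13, with a log2 fold change of 4.46 ± 0.88 for HOXD11 and 4.21 ± 0.96 for HOXD13 (SE; edgeR, adjusted p = 0.00817 and 0.0143). Anterior blastemas had 7 higher, where 12.1% of all genes were, and 2 lower, where 10.7% were. Those higher were HOXA10, HOXC12, HOXC13, HOXD4, HOXD9, HOXD10 and HOXD11, with a log2 fold change of 4.54 ± 1.01 for HOXD10 (SE; edgeR, adjusted p = 0.00851). HOXC12 had 0 and 1 reads in the uninjured libraries left, 87, 54, 19 and 37 reads in posterior and 46, 41, 36, 20 and 21 reads in anterior libraries, so no fold is given.

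No HOX gene passed between U0126-treated and uninjured tissue in edgeR on all libraries, where 0 of 19398 genes passed. By range, 0 members did not overlap, where 2.36% of all genes did not. At an unadjusted p under 0.05, 1 member was higher and 0 were lower, where 9.73% of all genes were called in either direction, and DESeq2 called 0 members and 34 genes. Without both libraries that stood apart, 5 members were higher, HOXC12, HOXC13, HOXD10 and HOXD11 among them, where 12.4% of all genes were, and HOXB3 and HOXC5 lower, where 9.59% were. HOXD11 then had a log2 fold change of 2.71 ± 0.81 (SE; edgeR, adjusted p = 0.0299), beside 0.94 on all libraries (edgeR, adjusted p = 0.685). The libraries left out held the lowest treated value of HOXD11, 0.283 CPM, and the highest uninjured one, 8.91 CPM. This setting thus removed values that went the other way.

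U0126-treated posterior and anterior blastemas were compared to place the treated tissue beside the other side of the limb. HOXD11 was at 0.283 to 24.0 CPM with a median of 4.17 CPM in U0126-treated libraries, against 5.87 to 12.1 CPM with a median of 6.30 CPM in anterior ones. HOXD10 had a median of 1.32 CPM in U0126-treated and 6.47 CPM in anterior libraries, with a log2 fold change of −1.85 ± 0.86, and HOXD9 one of −1.60 ± 0.56 (SE; edgeR, adjusted p = 0.287 and 0.162). HOXA13 had a positive one, 1.48 ± 0.71 (SE; edgeR, adjusted p = 0.302), with medians of 0.864 CPM in U0126-treated and 0.187 CPM in anterior libraries. No member passed in edgeR, where 1.18% of all genes did. At an unadjusted p under 0.05, 1 member was higher, where 8.55% of all genes were, and 5 lower, where 8.50% were. By range, 1 member did not overlap, HOXA5 as lower, where 4.40% of all genes did not (2.05% higher and 2.36% lower). DESeq2 called HOXA3 and HOXD9 as lower, where it called 3.37% of all genes. Without both libraries that stood apart, no member passed in edgeR, where 4.54% of all genes did. Without U0126-treated replicate 4, edgeR called HOXA3, HOXA9, HOXD9 and HOXD10 as lower. The share of all genes called as lower in that fit is not given here. These calls are therefore not read as particular to HOX genes. Over all fits that left out 1 library, 36 to 828 of all genes were called in this comparison, beside 229 on all libraries.

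Genes that act with HOX proteins were followed in lists from general knowledge of other vertebrates. Of the 7 TALE cofactors tested, homeodomain partners of the MEIS, PBX and PKNOX families that bind DNA with HOX proteins, 0 were called in each of the 6 comparisons. MEIS1 averaged 33.3 ± 11.3 CPM in U0126-treated (SD, n = 5) and 32.9 ± 3.16 CPM in posterior blastemas (SD, n = 4). Of 21 chromatin regulators of HOX clusters, 1 fell with the inhibitor, PHC2, a Polycomb group component. PHC2 was at 5.62, 5.69, 5.94, 11.6 and 6.76 CPM in U0126-treated libraries, against 25.2, 17.3, 17.8 and 17.9 CPM in posterior ones, which do not overlap. Its log2 fold change was −1.46 ± 0.25 (SE; edgeR, adjusted p = 0.0104). PHC2 was also the 1 regulator that rose in posterior relative to uninjured tissue, by 1.28 ± 0.29 on the log2 scale (SE; edgeR, adjusted p = 0.0392), in a comparison that shares the posterior libraries.

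Of 9 tested factors upstream of HOX genes, 1 fell with the inhibitor and rose in posterior relative to uninjured tissue, the retinoic acid receptor gene RARA. It was at 26, 25.6, 25.9, 51.8 and 21 CPM in U0126-treated, 104, 71.6, 57.2 and 42.3 CPM in posterior and 29.2, 18.6 and 25.2 CPM in uninjured libraries. Its log2 fold changes were −1.19 ± 0.28 with the inhibitor and 1.5 ± 0.33 in posterior against uninjured tissue (SE; edgeR, adjusted p = 0.0232 and 0.0374). As in the HOXD genes, replicate 4 was the highest treated library.

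Among 20 limb genes that act with or downstream of HOX genes, 7 fell with the inhibitor and 0 rose: PTCH1, TBX3, TBX5, SHOX, SHOX2, EPHA4 and EPHA7. The list's median log2 fold change was −1.73, beside −1.93 for HOXD. EPHA7, an ephrin receptor, was at 4.68, 5.31, 3.73, 11.8 and 1.62 CPM in U0126-treated libraries, against 40.7, 24.0, 21.7 and 17.1 CPM in posterior ones. Its groups did not overlap. Between the sides 1 of the 20 was called, LHX9 as lower in posterior blastemas, with a median log2 fold change of 0.94 over the list. In anterior relative to uninjured tissue ALX4 and LHX9 rose, and in posterior relative to uninjured tissue TBX3 and EPHA7 rose. In U0126-treated relative to anterior blastemas GLI3, ALX4 and LHX9 fell. The list was chosen with earlier results known, so its direction is no independent evidence.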

How the data were processed

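Polyadenylated RNA of 17 forelimb libraries was sequenced. The submitters' processing notes name Trimmomatic 0.39, a read trimmer, and STAR 2.7.3a, an aligner, with no settings. The build is not given in the sources used here, and coordinates and sequences are not printed. The authors deposited unnormalized counts for each gene, read without strand and by either strand. The unstranded counts were used (second to first strand ratio 1.90 to 2.16), so reads of overlapping or antisense genes may be mixed: by the RefSeq gene table of assembly UKY_AmexF1_1, used for names and neighbours, 13 members' spans overlap another member's and 9 a gene that is no member. Totals of reads that were not assigned to a gene (14.2% to 16.4% of reads) were left out.

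Genes were filtered with filterByExpr (19398 left), TMM-scaled (0.862 to 1.08) and fitted in 1 model of 4 groups (edgeR 4.0.16, run under R 4.3.3; quasi-likelihood F test with robust priors, Benjamini-Hochberg over all genes, threshold 0.05). The SE is the absolute log2 fold change over the square root of F. Tests were checked on simulated counts. Alternatives were RLE and total-count scaling, other filters, the second-strand column, only the groups compared, a replicate block, DESeq2 1.42.0 and left-out libraries. Named genes were those called, HOXA, HOXC and HOXD of paralogs 9 to 13, and the largest fold change per cluster; others are marked. Members, lists and the left-out pair were chosen with earlier results of these data known. Within each group no pair of libraries matched within sampling noise: chi-square was 68.7 to 676 for each degree of freedom. Figures were drawn with matplotlib 3.10.9. The values of 1 member are not reported here, though it is counted with the others and left out of the figures.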

Additional observations from a re-analysis of the deposited data

Results flagged for a closer look

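In 87 groups of 4 or 5 libraries, 1 for each tested HOX gene in each group of that size, 11 held a library far from the others by Dixon's test. Chance flags about 1 in 20 where values are independent and normally distributed. HOX genes of 1 library are not independent, and CPM was not log-scaled, so the count is not read as an excess. U0126-treated replicate 4 gave 7 of the 11 flags, each time as the highest treated library. Its HOXA7 was at 6.57 CPM, HOXA9 at 4.01 CPM, HOXA11 at 8.16 CPM, HOXD8 at 4.5 CPM, HOXD10 at 8.23 CPM, HOXD11 at 24.0 CPM and HOXD13 at 6.87 CPM. PRRX1 was highest in the same library among the treated ones, at 21.2 CPM. U0126-treated replicate 5 was far above the other treated libraries in HOXC5, at 15.0 CPM against at most 2.72 CPM. Anterior replicate 1 was low in HOXA5, at 0.350 CPM against at least 0.467 CPM in the other anterior libraries. Posterior replicate 2 was low in HOXB5, at 0.109 CPM against at least 0.315 CPM. Posterior replicate 4 was low in HOXC5, at 1.59 CPM against at least 2.33 CPM in the other posterior libraries. The cause of these values was not tested.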

How the results depend on the processing

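Over 56 gene results, recomputed 1464 times under other settings, 1328 values kept their direction and side of the threshold, 58 no longer passed, 74 newly passed and 4 reversed: HOXD11 in U0126-treated against uninjured tissue without U0126-treated replicate 4 (−0.18), and HOXD10 in posterior against anterior blastemas without posterior replicate 4 (0.08), anterior replicate 1 (0.0043) or anterior replicate 2 (0.18). Leaving out 1 library gave −0.18 to 2.39 for the first, highest without uninjured replicate 1, and −0.30 to 0.18 for the second, lowest without anterior replicate 4. Only results that passed on all libraries could stop passing, and most had not passed. With the inhibitor HOXA3, HOXD3 and HOXD8 no longer passed in 14, 7 and 14 of 26 other settings. In posterior against uninjured tissue HOXC8 and HOXD3 no longer passed in 10 and 13 of 26. The number of HOX genes called in U0126-treated against posterior blastemas was 1 with total-count scaling, 1 with only the 2 groups fitted (HOXC8, higher) and 9 with DESeq2. In posterior against uninjured tissue it was 1 with total-count scaling, without a filter or with the second-strand column, 0 with only the 2 groups fitted, 9 with DESeq2 and 13 without both libraries that stood apart. DESeq2 called 3 in posterior against anterior, 2 in anterior against uninjured and 2 in U0126-treated against anterior tissue. Without both libraries, 9 were called in anterior and 7 in U0126-treated against uninjured tissue. Leaving out 1 library at a time gave 0 to 12 calls in U0126-treated against posterior, 0 to 0 in posterior against anterior, 0 to 5 in anterior against uninjured, 0 to 9 in posterior against uninjured, 0 to 4 in U0126-treated against anterior and 0 to 2 in U0126-treated against uninjured tissue. The highest values against uninjured tissue came without uninjured replicate 1, and that against anterior tissue without U0126-treated replicate 4. In posterior against uninjured tissue 0 were left without U0126-treated replicate 2, posterior replicate 1, 2 or 3, or uninjured replicate 2 or 3, 1 without posterior replicate 4 or anterior replicate 1, 3 or 5, and 9 without uninjured replicate 1, 6 without U0126-treated replicate 4 and 5 without U0126-treated replicate 5. Over the fits that left out 1 library, the number of all genes called moved too. It was 127 to 2381 in U0126-treated against posterior, 0 to 4 in posterior against anterior and 0 to 3675 in anterior against uninjured tissue. It was 0 to 1935 in posterior against uninjured, 36 to 828 in U0126-treated against anterior and 0 to 1714 in U0126-treated against uninjured tissue. The cause was not tested.

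The libraries numbered 1 deviated together to a degree, with correlations of 0.156 to 0.349 over the comparisons. Those with other shared numbers did not throughout (−0.243 to 0.221), so the numbers are not read as pairs. With the replicate block 0 HOX genes were called in U0126-treated against posterior, where 947 genes were called in place of 1576, and 0 in posterior against uninjured tissue, where 45 genes were in place of 408. The block over the 3 anterior and 3 uninjured libraries whose names start alike called 0 HOX genes and 56 genes. Total-count scaling moved the split over all genes to 440 higher and 736 lower in U0126-treated against posterior (802 and 774 with TMM), to 173 and 100 in posterior against uninjured (168 and 240) and to 44 and 30 in anterior against uninjured tissue (13 and 27). It shifted the median of all genes by up to 0.14 on the log2 scale; the log2 fold changes above are relative to TMM. Members with few reads and groups of 3 to 5 limit what can be called.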

Other observations

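Genes that flank the HOX clusters were followed as a list of 14 tested genes. With the inhibitor, 1 rose and 1 fell. HIBADH, a metabolic enzyme gene beside the HOXA cluster, was at 123, 105, 97.7, 87.6 and 89.6 CPM in U0126-treated libraries, against 66.9, 63.8, 64.1 and 75.7 CPM in posterior ones. The groups did not overlap, and the log2 fold change was 0.57 ± 0.12 (SE; edgeR, adjusted p = 0.0183), while the tested genes of HOXA had a median of −1.08. HNRNPA1, an RNA-binding protein gene beside HOXC, fell by 0.52 ± 0.14 on the log2 scale (SE; edgeR, adjusted p = 0.0380). LNPK and MTX2, on either side of HOXD, had log2 fold changes of −0.04 ± 0.09 and 0.03 ± 0.09 (SE), where the HOXD genes had a median of −1.93. EVX1 and EVX2, homeobox genes at the ends of HOXA and HOXD, had at most 0.0723 and 0.231 CPM in any library and were not tested. The flanking list had 0 calls in each of the other 5 comparisons in edgeR.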
